A study of Mus musculus with 4 samples.

Results

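The 100 microRNA genes described here come from a study of LT-HSCs of the mouse, long-term haematopoietic stem cells, the rare bone marrow cells that sustain blood formation. They were chosen by level: of 538 genes whose platform symbol starts with Mir and a digit or with Mirlet, 100 (18.6%) were bright enough on average to reach 4.06. That limit is the median of the 4-array means of the 23185 genes that carry a symbol. Each value is a deposited log2 intensity for the probe set of 1 Entrez gene. Marrow cells of the phenotype Lin- ckit+ Sca+ received γ-rays at a dose of 0, 0.02, 0.1 or 0.5 Gy before transplantation, and the recipients had been lethally irradiated. At 6 months LT-HSCs were sorted from Lin- ckit+ Sca+ cells as the Flk2- and CD48- fraction positive for CD150, and total RNA of each dose went onto 1 array. Cells of all 4 groups, 0 Gy included, had therefore been transplanted into irradiated hosts. The labels do not say whether RNA of several mice was pooled, nor how donor cells were told from host cells. The labels used here name neither strain nor age of the mice. With 1 array per dose there is no spread within a dose, so each difference between doses is a difference between 2 arrays, and the 3 comparisons with 0 Gy share the same 0 Gy array.

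MicroRNAs are short RNAs that lower the output of messenger RNAs. A long primary transcript is cut by Drosha and Dgcr8 into a hairpin, exported by exportin-5 and cut again by Dicer, and 1 strand of the product is loaded into an Argonaute protein. Bases 2 to 8 of the mature microRNA, the seed, do most of the pairing with targets, and several hairpins often lie close together in a single primary transcript. In blood, miR-142 is a general haematopoietic microRNA, the miR-23a cluster is linked to myeloid development, miR-155 to lymphocyte activation and inflammation, and the miR-17 cluster to proliferation. The array labels whole transcripts from column-purified RNA, a preparation made for long RNA, so these values refer to transcripts that cover the hairpin gene and not specifically to the mature microRNA.

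The mature sequences below belong to the microRNA genes on which the dose results turn, printed 5′ to 3′ with the seed in capitals. Sequences and positions are from RefSeq on build GRCm38.p6, and 86 of the 100 genes had an entry in the microRNA sequence table used. The first set is the miR-17 cluster on the plus strand of chromosome 14. It is shown because Mir17 and Mir18 had lower values than at 0 Gy at every dose while their measured neighbours did not follow them. Mir17 and Mir20a share a seed, as do Mir19a and Mir19b-1, and the seed of Mir18 differs from both.
mmu-miR-17-5p: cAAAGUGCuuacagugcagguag
mmu-miR-20a-5p: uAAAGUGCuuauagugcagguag
mmu-miR-18a-5p: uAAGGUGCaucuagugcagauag
mmu-miR-19a-3p: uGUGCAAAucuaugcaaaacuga
mmu-miR-19b-3p: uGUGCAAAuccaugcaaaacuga
The hairpins of Mir17 (chr14:115043671-115043754) and Mir18 (chr14:115043851-115043946) are shown with their mature arms in capitals.
Mir17 hairpin: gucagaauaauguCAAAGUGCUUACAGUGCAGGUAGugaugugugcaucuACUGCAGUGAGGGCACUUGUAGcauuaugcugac
Mir18 hairpin: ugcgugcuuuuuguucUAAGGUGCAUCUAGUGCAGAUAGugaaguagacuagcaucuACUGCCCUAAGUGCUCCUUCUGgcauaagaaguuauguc

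The second set is the miR-23a cluster on chromosome 8, whose 4 genes all had higher values at every irradiated dose. Mir23a, Mir27a and Mir24-2 lie on the plus strand. Mir3074-2 lies on the minus strand (chr8:84208825-84208907) within the span of Mir24-2 (chr8:84208815-84208921), so the pair covers the same DNA in opposite directions. Seeds are in capitals in the first group of lines.
mmu-miR-23a-3p: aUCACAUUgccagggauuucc
mmu-miR-27a-3p: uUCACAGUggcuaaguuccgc
mmu-miR-24-3p: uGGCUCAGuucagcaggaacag
mmu-miR-3074-5p: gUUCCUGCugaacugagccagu
In the hairpins of that overlapping pair the mature arms are in capitals.
Mir24-2 hairpin: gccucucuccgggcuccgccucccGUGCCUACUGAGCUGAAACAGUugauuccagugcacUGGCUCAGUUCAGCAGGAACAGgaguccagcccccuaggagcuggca
Mir3074-2 hairpin: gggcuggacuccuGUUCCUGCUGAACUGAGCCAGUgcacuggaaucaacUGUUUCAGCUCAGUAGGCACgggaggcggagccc

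The third set holds single genes with the widest differences or with a known role in blood, again with seeds in capitals. Mir142 (chr11:87756864-87756927) and Mir26a-2 (chr10:126995530-126995613) both lie on the plus strand. Both arms of miR-142 are given because both are known to act in blood cells.
mmu-miR-142a-5p: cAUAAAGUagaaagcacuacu
mmu-miR-142a-3p: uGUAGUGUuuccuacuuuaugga
mmu-miR-26a-5p: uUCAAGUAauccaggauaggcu
mmu-miR-155-5p: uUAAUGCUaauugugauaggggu
mmu-miR-152-3p: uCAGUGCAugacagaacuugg
mmu-let-7a-5p: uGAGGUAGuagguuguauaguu
mmu-miR-25-3p: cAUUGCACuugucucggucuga
mmu-miR-92b-3p: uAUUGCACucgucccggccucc
mmu-miR-378b: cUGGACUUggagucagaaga
mmu-miR-5124a: gGUCCAGUgacuaagagcau
Among the 83 genes with a mature sequence there were 133 mature sequences with 130 different seeds. Only 3 seeds were shared, those of Mir25 and Mir92b, of Mir181c and Mir181d, and of Mir3473d and Mir674. By seed, these 83 genes were therefore nearly all of different families. The detected genes without a mature sequence were not placed in a family.

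Of the 100 genes, 99 were hairpin genes of 59 to 134 bases (median 82) and 1, Mir22hg, was a long non-coding host transcript. Their means ran from 4.06 to 10.37 with a median of 5.15, against a median of 2.64 over all 538 microRNA genes. The mean was under 5 for 46 genes and 8 or more for 6. Highest were Mir692-1 (10.37), Mir5099 (10.22) and Mir449b, whose values were 10.13, 10.28, 9.99 and 10.46 at 0, 0.02, 0.1 and 0.5 Gy. Mir449c, next to Mir449b, read 2.70 to 2.88, and Mir449a read 3.85 to 3.91. Values of different probe sets are not on a common scale of amount, so this order is one of brightness only. Just inside the limit were Mir874 and Mir431 (both 4.07) and Mir345 (4.06), and just outside it Mir3085 (4.03), Mir667 (4.02) and Mir540 (3.998).

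Detected genes were richer in G and C than the others. The mature microRNAs of 83 detected genes had a median of 56.5% G and C (quartiles 50% and 62.9%), against 47.7% (quartiles 41.9% and 53.5%) for 390 genes below the limit. Of the genes with 60% or more G and C, 43.4% (33 of 76) were detected, against 21.7% (33 of 152) at 50% to 60%, 5.23% (9 of 172) at 40% to 50% and 11.0% (8 of 73) under 40%. Over the 473 genes with a mature sequence, the mean level and this share had a Pearson correlation of 0.43 and a Spearman correlation of 0.47, a description across genes that share the same 4 arrays. The part of base composition in these levels was not tested. Within the detected genes, those past 2-fold at any dose had a median of 50% (24 genes) and the others 59.1% (59 genes).

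**Figure D1:**
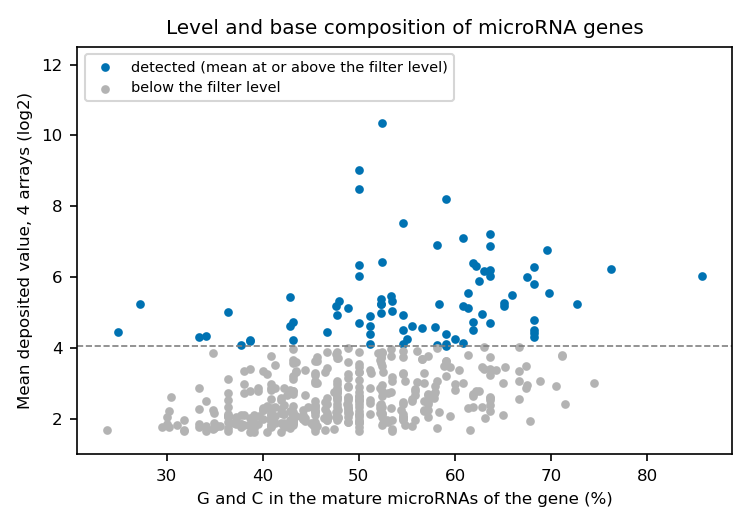
Mean deposited log2 value over the 4 arrays against the share of G and C in the mature microRNAs, 1 point per microRNA gene with a mature sequence (473 genes). Blue points are the 83 detected genes, grey points the 390 below the dashed filter level of 4.06, and detected genes are most frequent at 60% or more G and C.

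MicroRNAs reported as typical of long-term stem cells were mostly dim. Of 19 such genes with a probe set, 2 were detected. Mir99b, the first gene of the miR-99b, let-7e and miR-125a cluster, read 6.22, 6.22, 6.19 and 6.22 at 0, 0.02, 0.1 and 0.5 Gy. Mir212, processed from the same transcript as miR-132, read 4.50, 4.95, 4.50 and 4.50. Neither differed from 0 Gy by 1.5-fold at any dose. Mir125a, which shares its cluster with Mir99b, read only 2.10 to 2.39, and Mir126a read 2.11 to 2.26. Mir99a and Mir365-1 of the same list were below the limit by mean, and each reached it on 1 array. Mir99a read 2.22, 6.61, 2.05 and 3.47, and so was bright at 0.02 Gy alone. As deposited it was also 2.38-fold higher at 0.5 Gy than at 0 Gy, with both values below the limit. Mir365-1 read 3.07, 3.07, 3.07 and 4.32. Of the genes of the stem cell gate, Kit read 10.12 to 10.57 and Slamf1 (CD150) 7.16 to 8.65. Of those the gate excludes, Flt3 (Flk2) read 4.46 to 5.44, above the limit on every array and 0.98 higher at 0.1 Gy than at 0 Gy, and Cd48 read 3.08 to 4.13. Levels of different probe sets cannot be set against each other, so these values only show which genes were above the limit.

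At 0.02 Gy 4 detected microRNA genes were 2-fold or more higher than at 0 Gy (4%, beside 2.48% of all 11593 genes kept by the same level limit) and 4 were lower (beside 1.55%). At 0.1 Gy 12 were higher (beside 1.59%) and 5 lower (beside 2.68%). At 0.5 Gy 8 were higher (beside 1.63%) and 9 lower (beside 3.01%). In all, 28 of the 100 genes were past 2-fold at 1 or more doses, beside 8.98% of all genes kept. The 100 genes had a median difference of 0.00 at 0.02 Gy and of 0.02 at both 0.1 Gy and 0.5 Gy. For all genes kept it was 0.00 at each dose, so the medians gave no common shift. The quartiles of the microRNA genes were -0.36 and 0.33 at 0.02 Gy, against -0.20 and 0.15 for all genes kept. At 0.1 Gy they were -0.19 and 0.30, against -0.19 and 0.12, and at 0.5 Gy -0.24 and 0.33, against -0.22 and 0.14.

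The larger share past 2-fold was seen at each level. Among genes with a mean under 5 it was 26.1% (12 of 46 microRNA genes) beside 12.1% of all genes kept, and between 5 and 6 it was 37.0% (10 of 27) beside 14.2%. Between 6 and 8 it was 23.8% (5 of 21) beside 7.47%, and at 8 or more 16.7% (1 of 6) beside 3.15%. Of the 28 genes, 18 passed 2-fold at 1 dose, 6 at 2 doses and 4 at all 3, and 11 stayed at or above the level limit on all 4 arrays. The other 17 were below it on at least 1 array, 8 of them at 0 Gy. A gene near the limit can be kept only through the arrays on which it is bright, so a difference in these 17 genes is partly built into the choice. No detection call comes with the values, and the size of a difference below the limit is uncertain. With every value under 4.06 raised to 4.06, 23 of the 28 genes stayed past 2-fold (beside 8.41% of all genes kept), and Mir3076, Mir155, Mir7-1, Mir25 and Mir721 did not. Fold sizes below that involve such a value are given with it raised in this way, unless they are said to be as deposited. Counts and patterns over the arrays use the deposited values unless said otherwise.

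**Figure D2:**
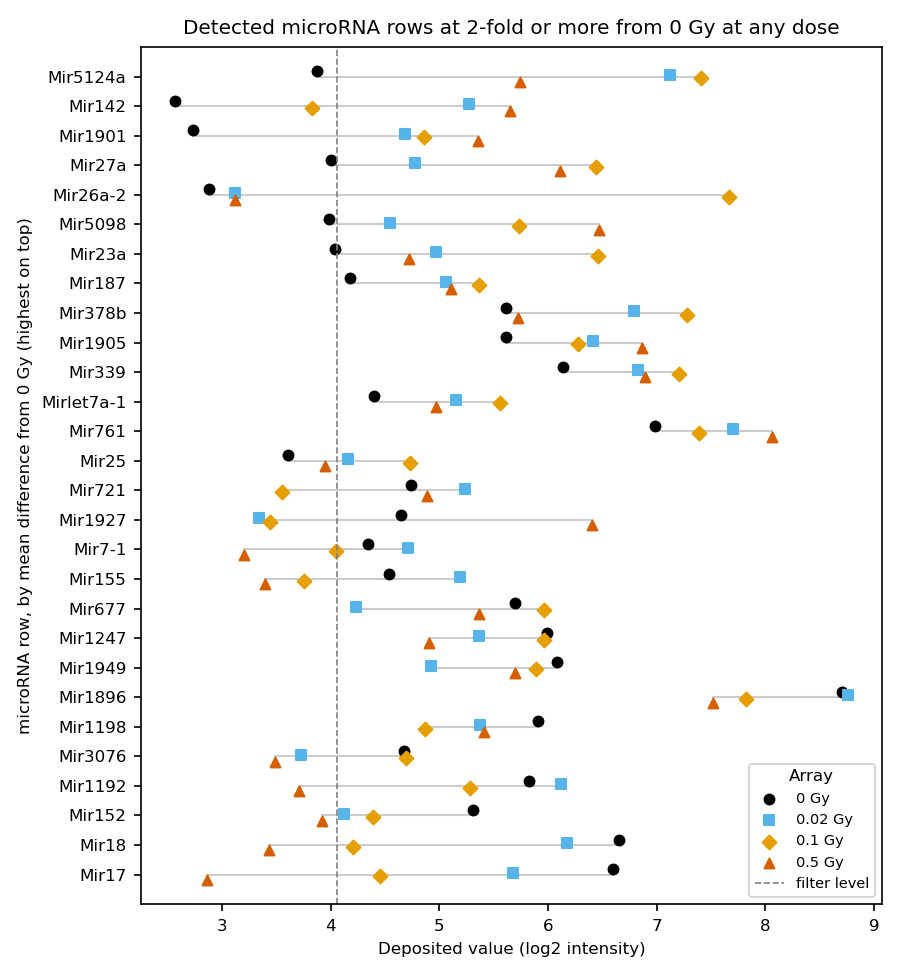
Deposited log2 values of the 28 detected microRNA genes at 2-fold or more from 0 Gy at any dose, 1 symbol per array (circle 0 Gy, square 0.02 Gy, diamond 0.1 Gy, triangle 0.5 Gy), with the filter level of 4.06 dashed. Mir5124a, Mir142 and Mir1901 are lowest at 0 Gy by a wide gap, Mir26a-2 stands out at 0.1 Gy alone, and Mir17 and Mir18 are lower at each higher dose.

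limma's test over all 11593 genes called no detected microRNA gene in either fit. With the 3 irradiated arrays set against the lone 0 Gy array, which is assumed to vary like the others, 0 of 100 had an adjusted p under 0.05 (beside 0% of all genes), and 9 had an unadjusted p under 0.05 (beside 10.9%). The lowest adjusted p was 0.18, for Mir874, whose values were 3.78, 4.20, 4.16 and 4.16. With a straight line in dose, 0 of 100 passed (beside 0%), 11 had an unadjusted p under 0.05 (beside 12.3%), and limma's lowest adjusted p was 0.31, for Mir1192. Both shares at the unadjusted threshold were near those of all genes. No difference below is therefore past a replicated test, and the words higher and lower describe arrays.

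The miR-17 cluster gave the widest differences toward lower values. Mir17 read 6.60, 5.68, 4.46 and 2.86 at 0, 0.02, 0.1 and 0.5 Gy. Each value was below the one at the next lower dose, and at 0.5 Gy it was 5.84-fold lower than at 0 Gy with the value at 0.5 Gy raised to the limit. Mir18 read 6.66, 6.18, 4.21 and 3.44 in the same order, 5.47-fold lower at 0.1 Gy and 6.06-fold lower at 0.5 Gy than at 0 Gy. Of the 100 genes, 3 (Mir17, Mir18 and Mir1945) had 4 different values that were lower at each higher dose (beside 2.94% of all genes kept), and 2 had values that were higher at each higher dose (beside 1.94%). Mir17 and Mir18 were the 2 that were also 2-fold or more lower at 0.5 Gy (beside 0.819%).

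The other measured genes of the cluster did not share this pattern, although the cluster is known to be made as a single primary transcript. Of its 6 microRNA genes in the annotation, 5 have a value here. Mir20a, with the seed of Mir17, read 3.58, 4.23, 2.64 and 2.96, so it was higher at 0.02 Gy and lower at 0.1 and 0.5 Gy, and its mean was below the level limit. Mir19a read 2.32, 2.38, 2.32 and 1.93, and Mir19b-1 2.97, 3.98, 3.13 and 3.15. Mir17hg, annotated as the host transcript, read 3.30, 3.47, 3.52 and 3.81, highest at 0.5 Gy, where Mir17 was lowest. Apart from Mir20a at 0.02 Gy these values were below the level limit on every array, where a further drop may be missed. The other genes with the seed AAAGUGC (Mir106a, Mir93, Mir20b and Mir106b) read 3.06 or less on every array and did not differ by 1.5-fold from 0 Gy at any dose.

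Mir25 belongs to a related cluster with Mir93 and Mir106b inside Mcm7, a gene of the replicative helicase. It read 3.61, 4.16, 4.73 and 3.95, and was 1.59-fold higher at 0.1 Gy than at 0 Gy. Its cluster neighbours Mir93 (2.43, 2.29, 2.43 and 2.86) and Mir106b (3.06 on every array) and its host Mcm7 (8.36, 8.09, 8.36 and 8.83) did not show this difference. Mir92b, which carries the same seed as Mir25 on another chromosome, read 6.23, 6.30, 6.27 and 5.88.

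**Figure D3:**
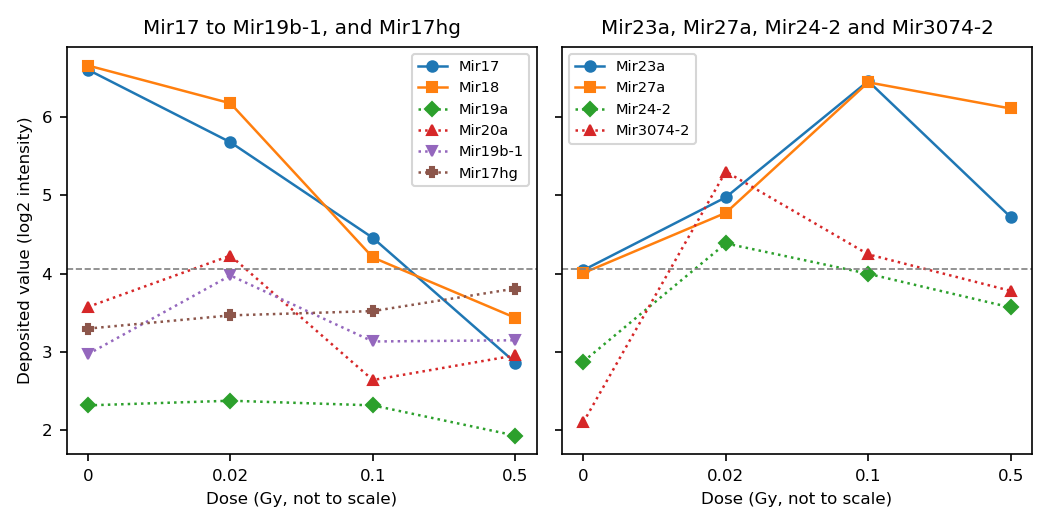
Deposited log2 values by dose for the miR-17 cluster with Mir17hg (left) and the miR-23a cluster with the opposite-strand Mir3074-2 (right). Solid lines are detected genes, dotted lines genes below the filter level of 4.06 (dashed). Mir17 and Mir18 are lower at each higher dose while the other left-hand genes stay between 1.93 and 4.23, and all 4 right-hand genes are lowest at 0 Gy.

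All 4 genes of the miR-23a cluster had their lowest value at 0 Gy, and the deposited values of all 4 were 2-fold or more higher at 0.1 Gy. Mir23a read 4.04, 4.97, 6.46 and 4.72 at 0, 0.02, 0.1 and 0.5 Gy, and was 5.28-fold higher at 0.1 Gy than at 0 Gy. Mir27a, which acts with miR-23a and miR-24 in myeloid cells, read 4.01, 4.78, 6.44 and 6.11, 5.22-fold higher at 0.1 Gy and 4.14-fold higher at 0.5 Gy. Both were highest at 0.1 Gy and lowest at 0 Gy. Mir24-2 read 2.88, 4.39, 3.998 and 3.57 and Mir3074-2 read 2.10, 5.30, 4.25 and 3.78, so this overlapping pair was highest at 0.02 Gy instead. Both of the pair had means below the level limit. The paralogous cluster on chromosome 13 stayed near its 0 Gy values: Mir24-1 read 4.15, 4.62, 4.35 and 4.47, and Mir23b and Mir27b read 2.10 to 2.43.

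Mir142, a microRNA of nearly all blood cells, read 2.57, 5.28, 3.83 and 5.66. Its deposited value was lowest at 0 Gy. Raised to the limit, the 0 Gy value was exceeded 2.33-fold at 0.02 Gy and 3.02-fold at 0.5 Gy, and at 0.1 Gy both values were below the limit. Of the 10 genes of the myeloid microRNA list with a probe set, 4 were detected. Of these, 3 (Mir142, Mir23a and Mir27a) had deposited values 1.5-fold or more higher at each dose (beside 1.5% of all genes kept). Mir24-1 was within 1.5-fold. Mir142, Mir23a and Mir27a were below the level limit at 0 Gy, so they were kept only through the irradiated arrays, and their count is a description. With low values raised, Mir142 did not differ from 0 Gy at 0.1 Gy. Over all 10 measured genes of the list the median difference was 0.29 at 0.02 Gy, 0.24 at 0.1 Gy and 0.28 at 0.5 Gy, beside 0.00 for all genes kept. Granulocyte marker genes were also mostly higher on irradiated arrays. All 6 were measured. At 0.02, 0.1 and 0.5 Gy, 3, 5 and 5 of them were 1.5-fold or more higher than at 0 Gy, beside 6.44%, 5.5% and 5.92% of all genes kept. At 0.02 Gy 1 of them was lower (beside 6.2%). Their summed level on the log2 scale was 8.19, 9.35, 10.16 and 9.18 in dose order, and Mpo (myeloperoxidase) alone read 4.78, 6.44, 8.75 and 7.07. The 3 measured monocyte and macrophage markers did not follow this order. Cd68 read 6.10, 7.78, 4.02 and 6.18, lowest at 0.1 Gy, and Csf1r and Ly86 were within 1.5-fold of 0 Gy at each dose. The sort was gated on Lin- cells, a gate meant to remove mature granulocytes. Which cells gave the granulocyte marker values, mature or not, and their part in the microRNA values were not tested. In sorted bulk RNA, more cells of a type and more RNA per cell cannot be told apart.

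Mir155, made from the Mir155hg transcript in activated lymphocytes and macrophages, read 4.54, 5.19, 3.75 and 3.39. It was 1.57-fold higher at 0.02 Gy and 1.40-fold lower at 0.5 Gy than at 0 Gy. The other detected genes of the lymphoid list, Mir181c, Mir181d and Mir210, were within 1.5-fold of 0 Gy at each dose. Of the 13 measured genes of that list 4 were detected, and their median difference was 0.07 at 0.02 Gy, 0.06 at 0.1 Gy and -0.12 at 0.5 Gy, beside 0.00 for all genes kept. The 5 measured B cell and plasma cell markers had summed log2 levels of 11.56, 12.13, 11.60 and 8.76 in dose order, highest at 0.02 Gy and lowest at 0.5 Gy. Mir155 was also highest at 0.02 Gy. Its values at 0.1 and 0.5 Gy were both below the level limit, so their order is uncertain. Of the 5 markers, 3 were 1.5-fold or more higher at 0.02 Gy (beside 6.44% of all genes kept) and 3 were lower at 0.5 Gy (beside 8.25%). Ms4a1 (CD20) read 2.23 to 2.32 on every array, Ighm 10.93, 11.20, 11.35 and 7.21. The Lin- gate is meant to remove mature B cells, and the part of these cells in the Mir155 values was not tested. Mir486, an erythroid microRNA and the 1 detected of 12 on the erythroid and megakaryocyte list, read 6.12, 6.12, 6.12 and 6.03. Among the 4 measured erythroid markers, 2 at 0.1 Gy and 3 at 0.5 Gy were 1.5-fold or more higher (beside 5.5% and 5.92% of all genes kept). At 0.02 Gy 1 was lower (beside 6.2%). The summed log2 level of the 4 erythroid markers was 9.30, 8.72, 10.34 and 10.89.

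Mir26a-2 differed most from 0 Gy among the 100 genes, as deposited and with low values raised. It read 2.88, 3.12, 7.67 and 3.12 at 0, 0.02, 0.1 and 0.5 Gy, and was 12.2-fold higher at 0.1 Gy than at 0 Gy. The 0.1 Gy array stood alone, and it alone brought the mean past the level limit. Ctdsp2, the phosphatase gene whose span holds Mir26a-2 on the same strand, read 7.71, 8.14, 7.79 and 7.64. Mir26a-1 and Mir26b, which carry the same seed, read 2.10 to 2.85 on all arrays. Mir23a was the other gene 2-fold or more above each other array at 0.1 Gy, a pattern of 0.328% of all genes kept. No gene stood above the other arrays at 0 Gy (beside 0.457%) or at 0.02 Gy (beside 1.21%).

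A group of 9 genes was 1.5-fold or more higher than at 0 Gy at all 3 doses, beside 1.5% of all genes kept. They were Mir339, Mir1905, Mir5124a, Mir27a, Mir23a, Mir187, Mir1901, Mir142 and Mir30d. Because the 3 comparisons share the 0 Gy array, a single low array is enough to give this pattern. Mir5124a, Mir27a, Mir23a, Mir1901, Mir142 and Mir30d were below the level limit at 0 Gy and were kept only through the irradiated arrays. Their place in the group is therefore partly built into the choice of genes, and its size is a description. The group rests on deposited values. With low values raised, Mir142 did not differ at 0.1 Gy and Mir30d was less than 1.5-fold higher at each dose, so both would leave the group. For Mir5124a, Mir1901 and Mir142 the 0 Gy value was 2-fold or more below each of the other 3, beside 0.336% of all genes kept. Mir5124a read 3.88, 7.13, 7.41 and 5.74, and was 8.38-fold higher at 0.02 Gy and 10.2-fold higher at 0.1 Gy than at 0 Gy. Gcnt2, the glycosyltransferase gene that holds it on the same strand, read 8.77, 9.29, 8.97 and 8.97.

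Mir1901 read 2.73, 4.68, 4.86 and 5.36, and was 2.47-fold higher at 0.5 Gy. Cables1, which overlaps Mir1901, read 5.03, 5.43, 5.14 and 5.03. Mir5098 read 3.98, 4.55, 5.73 and 6.47, 5.31-fold higher at 0.5 Gy, while Rest, which overlaps it, read 8.02, 8.14, 7.92 and 7.64. Mir1901 and Mir5098 were the 2 genes whose values were higher at each higher dose and passed 2-fold at 0.5 Gy (beside 0.388% of all genes kept). Mir187 read 4.18, 5.07, 5.37 and 5.11, Mir30d 3.66, 4.38, 4.56 and 4.38, and Mir339 6.14, 6.83, 7.21 and 6.90. In these the 3 irradiated arrays lay close together above the 0 Gy array. Mir1905 read 5.61, 6.42, 6.28 and 6.86, and was 2.38-fold higher at 0.5 Gy.

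Mir378b read 5.61, 6.79, 7.28 and 5.72, so it was 2.27-fold higher at 0.02 Gy and 3.18-fold higher at 0.1 Gy but close to 0 Gy at 0.5 Gy. It lies on the strand opposite Msi2, the RNA-binding protein Musashi-2 of stem cells, which read 9.63, 9.75, 9.93 and 9.57. Mirlet7a-1, the single detected member of the let-7 family of differentiation microRNAs out of 13 measured, read 4.40, 5.16, 5.56 and 4.97 and was 2.24-fold higher at 0.1 Gy. Its cluster neighbours Mirlet7d (2.81, 3.06, 2.95 and 4.06) and Mirlet7f-1 (2.05, 2.04, 1.61 and 2.47) were instead highest at 0.5 Gy. Mir761 read 6.99, 7.70, 7.39 and 8.07, 2.11-fold higher at 0.5 Gy.

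Beside Mir17, only Mir152 was 1.5-fold or more lower at all 3 doses, and together these 2 genes compare with 2.04% of all genes kept. Mir152 read 5.31, 4.13, 4.39 and 3.93, and was 2.27-fold lower at 0.02 Gy and 2.38-fold lower at 0.5 Gy. Its same-strand host Copz2, a coatomer subunit gene, ran the other way with 5.95, 6.30, 6.15 and 6.61. Mir1192 read 5.83, 6.12, 5.28 and 3.71, 3.41-fold lower at 0.5 Gy, while Klf9, which holds it, read 6.15, 6.32, 6.15 and 6.04. Mir7-1 read 4.35, 4.71, 4.05 and 3.20, 1.22-fold lower at 0.5 Gy, while its host Hnrnpk was highest there (7.07, 7.07, 7.17 and 7.53). Mir1896 read 8.70, 8.77, 7.82 and 7.52 and was 2.28-fold lower at 0.5 Gy, the one gene with a mean of 8 or more to pass 2-fold. Mir3076 read 4.68, 3.73, 4.69 and 3.49, and Mir1247 5.99, 5.37, 5.96 and 4.91.

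At 0.02 Gy alone, Mir677 stood 2-fold or more below each other array (beside 0.233% of all genes kept), with 5.70, 4.23, 5.97 and 5.37 in dose order. Its host Atp5b, an ATP synthase subunit gene, read 10.78, 10.69, 10.78 and 10.91. Mir1949 read 6.09, 4.93, 5.89 and 5.70, with its low value on the same array. Snhg4, a non-coding gene that overlaps Mir1949 with strand not given, was lowest there too (8.11, 7.37, 8.09 and 7.75). At 0.1 Gy, Mir721 (4.74, 5.24, 3.56 and 4.89) and Mir1198 (5.91, 5.37, 4.87 and 5.41) had their lowest values, and that of Mir721 was 2-fold below each other array (beside 0.397%). At 0.5 Gy, Mir1192 and Mir17 did so (beside 0.621%), and Mir1927 stood above (beside 0.319%). Mir1927 was the one gene past 2-fold in both directions, with 4.64, 3.34, 3.45 and 6.41, lower at 0.02 and 0.1 Gy and 3.40-fold higher at 0.5 Gy. Rabgap1l, its same-strand host, read 5.74 to 5.88.

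Overlapping genes differed less from 0 Gy than the microRNA genes inside them, in pairs that were not matched for level. Many of the overlapping genes were brighter than their microRNA gene, though not all. Over all genes kept, the share past 2-fold at any dose was 12.1% at a mean under 5 and 3.15% at 8 or more. The part of level in this contrast was not tested. In the annotation 70 of the 100 genes overlap another gene that is not a microRNA gene, 46 of them on the same strand. For 38 same-strand pairs the other gene was also kept. The microRNA gene was 2-fold or more from 0 Gy in 4, 7 and 7 of these pairs at 0.02, 0.1 and 0.5 Gy, and the overlapping gene in 1, 0 and 0. In none of the 38 pairs were both past 2-fold in the same direction at any dose. Absolute differences had a median of 0.44 for microRNA genes and 0.13 for their overlapping genes at 0.02 Gy, 0.32 and 0.11 at 0.1 Gy, and 0.34 and 0.14 at 0.5 Gy. Over the 38 pairs, which share the same arrays, the Pearson correlation of the differences was 0.23 at 0.02 Gy, -0.003 at 0.1 Gy and -0.16 at 0.5 Gy. Only the ends of genes were compared, so exons and introns were not told apart.

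**Figure D4:**
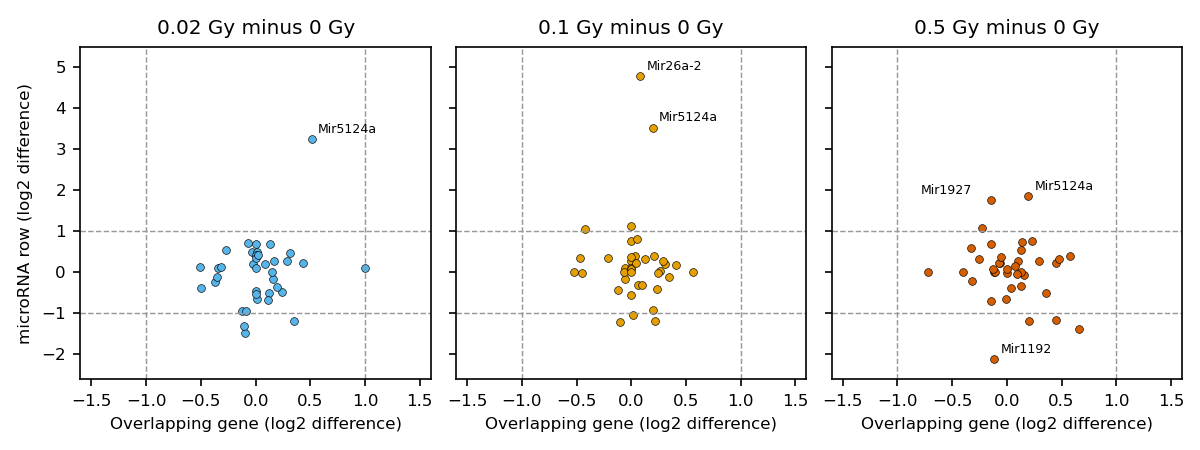
log2 difference from 0 Gy of the microRNA gene (vertical axis) against that of the gene overlapping it on the same strand (horizontal axis) for 38 pairs, 1 panel per dose, with 2-fold dashed. Points spread along the vertical axis, up to 4.79 for Mir26a-2 at 0.1 Gy, while overlapping genes stay within 2-fold apart from 1 at 0.02 Gy, and no point lies past both dashed lines in the same direction.

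Of 46 measured microRNA genes of the Dlk1-Dio3 imprinted region on chromosome 12, 7 were detected (Mir431, Mir665, Mir673, Mir329, Mir679, Mir666 and Mir134), and none passed 2-fold at any dose. Mir679 was 1.85-fold lower at 0.02 Gy. Mir431 was 1.75-fold lower at 0.1 Gy as deposited, but its value there (3.65) was below the level limit, so the size is uncertain. The other differences of these genes were within 1.5-fold. Of 11 measured p53-linked genes only Mir194-1 was detected, with 4.57, 4.36, 5.12 and 4.81. Mir34a, a direct p53 target, read 2.45 to 2.48 on every array. Of 10 inflammation-linked genes 3 were detected, Mir155 and Mir212 as above and Mir9-3, which had the same deposited value (4.31) on all 4 arrays.

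Genes of the microRNA pathway were well detected and nearly flat. Of 13 measured genes for nuclear processing and export, all 13 were kept and none differed from 0 Gy by 1.5-fold at any dose, beside 6.44% higher and 6.2% lower of all genes kept at 0.02 Gy, 5.5% and 7.48% at 0.1 Gy, and 5.92% and 8.25% at 0.5 Gy. Drosha read 6.85 on all 4 arrays, Dgcr8 6.08, 5.68, 6.08 and 6.08, and Xpo5 (exportin-5) 7.58, 7.40, 7.60 and 7.23. Of 12 genes of the Dicer step, 10 were kept and none reached 1.5-fold, with Dicer1 at 6.51, 6.51, 6.65 and 6.51. Of 22 Argonaute and silencing genes, 21 were kept and 3 reached 1.5-fold at 1 dose each. Ago1 read 6.27, 7.21, 6.57 and 6.63, higher at 0.02 Gy. At 0.5 Gy Cnot7, a deadenylase subunit gene, was higher (6.92, 7.40, 6.40 and 7.77) and Pan2, another deadenylase gene, was lower (6.25, 5.99, 5.91 and 5.49). Ago2, the slicing Argonaute, read 7.59, 7.52, 7.58 and 7.58.

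**Figure D5:**
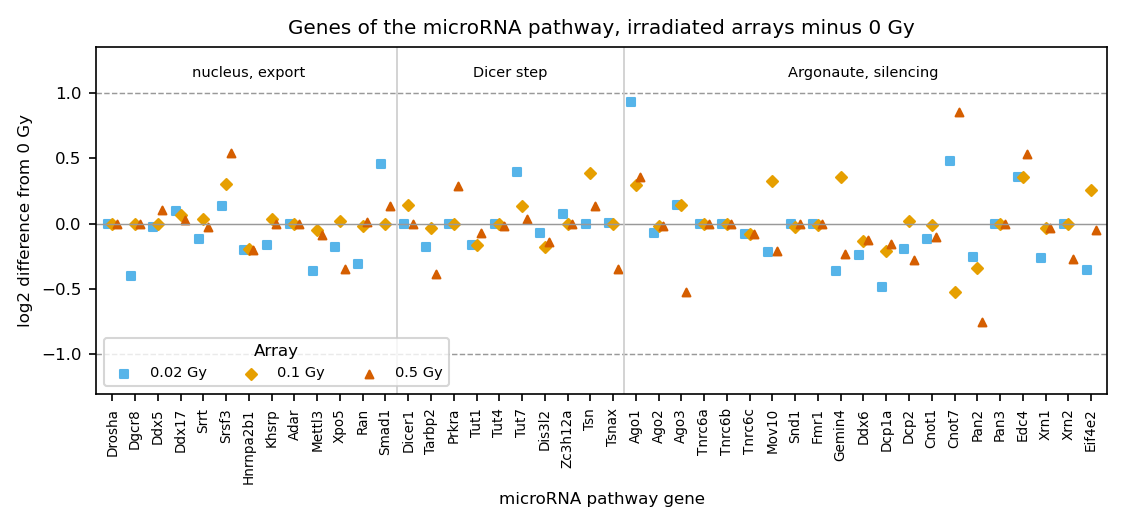
log2 difference from 0 Gy of the kept genes of the microRNA pathway, grouped by step, with 1 symbol per irradiated dose and 2-fold dashed. All points lie within 2-fold, and the widest are Ago1 at 0.02 Gy (0.93), Cnot7 at 0.5 Gy (0.85) and Pan2 at 0.5 Gy (-0.76).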

How the data were processed

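Total RNA was labelled with an Affymetrix whole-transcript sense target kit and purified on RNeasy-micro columns, as the labels state. The authors deposited log2 intensities, 1 per Entrez gene, with base 2 inferred from a range of 1.22 to 13.0. Partek is named in the submitters' processing notes. Its version or role is not given in the sources used here, nor is the normalization or build. The arrays had medians of 4.01 to 4.07 and no read depth, and their number limits the precision. Probe numbers per gene are unknown here.

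Values were used as deposited. Of 25206 probe sets, 2021 without a symbol were left out, and 11593 with a mean at or above 4.06 were kept. The labels put 1 array in each dose, so pairs were compared as log2 differences with counts at 2-fold (1.5-fold for lists) and no test. With lmFit and eBayes of limma 3.58.1 (R 4.3.3) and Benjamini-Hochberg adjustment at 0.05, the irradiated arrays were compared with 0 Gy and a line in dose was fitted. Both fits were tested on simulated data. Equal values between arrays occurred in 24% of the microRNA genes and 46.3% of genes kept. Neighbours within 10 kb and overlapping genes came from RefSeq on GRCm38.p6, used for names and order. The genes, lists and rules were chosen with earlier results of these data known. Named genes are those past 2-fold, 1.5-fold at all 3 doses, brightest, next to the limit or on a list, plus their neighbours, hosts and seed relatives. The last group and base composition were chosen after values were seen. Alternatives were quantile normalization, median centring, no filter, a stricter filter, 1.5-fold, genes without equal values, an intensity trend, dose rank and leaving out each array. Raising values under 4.06 to that level was added after seeing the data.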

Additional observations from a re-analysis of the deposited data

How the results depend on the processing

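No paired analysis was possible because each dose has 1 array. Counts past 2-fold (higher and lower than 0 Gy) were 4 and 4 at 0.02 Gy, 12 and 5 at 0.1 Gy and 8 and 9 at 0.5 Gy. They changed by at most 1 with quantile normalization, median centring or leaving out genes with equal values. With no filter (538 genes) they were 18 and 9, 22 and 9, and 20 and 16. With the stricter filter (29 microRNA genes) they were 2 and 0, 3 and 0, and 3 and 1. The shares over all genes under these 2 filters are not given here, so those counts are a description only. With values under 4.06 raised to it, an alternative added after seeing the data, the counts were 3 and 3, 9 and 3, and 8 and 6. The shares of all genes kept were then 2.37% and 1.43%, 1.40% and 2.48%, and 1.48% and 2.73%. At 1.5-fold the counts were 15 and 11, 17 and 10, and 18 and 13. Beside these, the shares of all genes kept were 6.44% and 6.2%, 5.5% and 7.48%, and 5.92% and 8.25%. Of the 42 single differences recomputed, all 42 stayed past 2-fold with median centring. With quantile normalization 40 did, and Mir1198 at 0.1 Gy (-0.998) and Mir1247 at 0.5 Gy (-0.995) fell just under it. For limma the alternatives run were quantile normalization, no filter, an intensity trend, dose rank for the line, and each array left out in turn (for the fit against 0 Gy, each irradiated array). Under all but one of these it called 0 genes among the microRNA genes (0 to 0 with an array left out), and among the detected ones 8 to 15 had an unadjusted p under 0.05, no filter aside. The exception was the irradiated arrays against the lone 0 Gy array with no filter. That fit called a smaller share of the microRNA genes than of all genes, so its calls were not particular to microRNA genes. The microRNA genes called were Mir34b (2.53, 2.99, 2.99 and 2.99, a log2 difference of 0.459) and Mir452 (3.06, 2.15, 2.13 and 2.15, a log2 difference of -0.921), both below the level limit. Both rest on near-equal values of the irradiated arrays. One array per dose, brightness near the level limit and the unknown number of probes per hairpin limit what these values can show.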

Other observations

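Among the 438 microRNA genes with means below the level limit, 41 reached it on at least 1 array, and 36 were past 2-fold at a dose, 27 of which reached the limit on an array. Of all genes kept, a set of higher level, 8.98% were past 2-fold at a dose. The same share over all genes below the limit is not given here, so these counts are a description only. Some of the microRNA genes below the limit had differences as wide as those of the detected genes. Mir202 read 1.85, 5.59, 2.03 and 2.03 at 0, 0.02, 0.1 and 0.5 Gy, so only the 0.02 Gy array was bright. Mirlet7c-2 read 4.99, 2.17, 1.90 and 2.05, bright at 0 Gy alone, in the opposite sense to Mirlet7a-1, which has the same seed. Mir103-2 read 4.72, 4.76, 2.25 and 3.09, bright at 0 and 0.02 Gy. These 3 genes were chosen after their values were seen.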
